A study of Mus musculus with 12 samples.

Results

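A group of 10 genes of the smooth-muscle type actin cytoskeleton, out of 18193 genes tested, was described across bone marrow-derived macrophages (BMDMs). They are Tagln, Acta2, Actg2, Cald1, Cnn2, Cnn3, Tpm1, Tpm2, Myl9 and Enah. They were chosen by family and with their genotype differences known. Tagln, Enah, Cald1 and Tpm2 are among the genes that the study picked on these same arrays for higher levels in ΔTrspM cells, Tpm2 by the gene list in its figure. The others were added as members of the same cytoskeletal families. The genotype differences given here are therefore descriptions, with no test. The LPS responses were not themselves used in the choice and were tested. They draw on the same arrays as the genotype differences, so their tests are not free of that choice. ΔTrspM mice (Trspfl/fl-LysM-Cre+/-) carried floxed alleles of Trsp, the gene of the selenocysteine tRNA that all selenoproteins need, together with Cre under the lysozyme M promoter. Control mice (Trspfl/fl-LysM-Cre-/-) carried the same floxed alleles without Cre. All mice were c57bl6 females, and no age was given. Marrow cells grew for 7 days with M-CSF, which drives macrophage differentiation, and were then stimulated with LPS, a bacterial Toll-like receptor ligand, for 4 h or left unstimulated. Each of the 4 groups had 3 biological replicates and each replicate had its own array, 12 in all. Whether the replicates were separate mice was not stated, so the p-values measure the spread between these cultures. Lysozyme M-Cre acts in macrophages and other myeloid cells, so cells of other lineages in such cultures keep Trsp, and some myeloid cells can escape deletion. Deletion of Trsp itself was not analysed here.

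These genes encode the parts of contractile actin bundles. Smooth muscle actins form the filaments, tropomyosins lie along them, calponins, caldesmon and transgelin bind and stabilise them, the regulatory myosin light chain switches the motor on, and ENAH extends filament ends. Smooth muscle cells, myofibroblasts and stromal cells of marrow are their best-known sources, and many of the genes are switched on by serum response factor (SRF) with the actin-sensing cofactors MRTF-A and MRTF-B, through a DNA motif called the CArG box. Resting macrophages build their cortex mostly from other family members, such as the cytoplasmic actins.

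Promoter sequence was examined because many of these genes share that route of control. RefSeq windows of 250 bases upstream of a start site (build GRCm38.p6) were at hand for 8 of the 10 genes; Tagln and Actg2 had no entry. A CArG box, read as CC, 6 letters of A or T, and GG, on either strand, was present in 2 of the 8 genes, Cnn2 and Myl9, and in 1.47% of all 32851 windows. Allowing 1 other base in the core added Acta2, giving 3 of 8 genes against 8.59% of all windows. The MCAT motif GGAATG, on either strand, was found in 3 of 8 genes, Acta2, Cald1 and Tpm1, and in 12.6% of all windows. The shares of all windows count windows and not genes. Counted by window, the 3 matches were in 2, 3 and 3 of 9 windows of these genes, as Cald1 had more than 1. A match is only a match of letters and was not read as a site in use. The windows of 4 genes are printed because they hold the CArG boxes, strict or near, and, for Tpm1, the MCAT motif of the gene that came closest to passing the test for LPS. They run 5′ to 3′ on the strand of the gene, and capitals mark the CArG box, the CArG box with 1 other base in its core, or the MCAT motif. Acta2 lies at chr19:34255374-34255623 on the minus strand, Cnn2 at chr10:79988350-79988599 on the plus strand, Myl9 at chr2:156775214-156775463 on the plus strand and Tpm1 at chr9:67049214-67049463 on the minus strand.
Acta2: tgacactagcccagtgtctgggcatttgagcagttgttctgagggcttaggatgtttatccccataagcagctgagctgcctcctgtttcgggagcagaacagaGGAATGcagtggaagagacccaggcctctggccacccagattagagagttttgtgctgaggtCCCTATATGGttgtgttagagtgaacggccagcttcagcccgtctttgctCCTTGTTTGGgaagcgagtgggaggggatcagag
Cnn2: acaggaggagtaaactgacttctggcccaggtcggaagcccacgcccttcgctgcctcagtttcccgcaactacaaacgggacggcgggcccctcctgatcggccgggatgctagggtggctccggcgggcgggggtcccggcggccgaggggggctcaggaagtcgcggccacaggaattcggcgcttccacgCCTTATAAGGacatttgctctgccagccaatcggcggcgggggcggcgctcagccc
Myl9: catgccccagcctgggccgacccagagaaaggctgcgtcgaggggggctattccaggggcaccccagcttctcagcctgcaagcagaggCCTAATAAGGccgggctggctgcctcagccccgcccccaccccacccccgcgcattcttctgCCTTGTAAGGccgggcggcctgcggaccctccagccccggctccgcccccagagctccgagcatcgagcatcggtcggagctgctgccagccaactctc
Tpm1: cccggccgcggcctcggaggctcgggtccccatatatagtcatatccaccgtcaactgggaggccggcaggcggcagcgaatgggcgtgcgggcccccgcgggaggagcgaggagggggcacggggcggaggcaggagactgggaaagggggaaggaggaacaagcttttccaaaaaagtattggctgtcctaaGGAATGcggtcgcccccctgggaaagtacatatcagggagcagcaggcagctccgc
In Acta2 the MCAT motif began 146 bases upstream of the start and the CArG-like stretches 84 and 34 bases upstream. The strict CArG box of Cnn2 began 56 bases upstream. Myl9 held a strict box 161 bases upstream and a second with 1 other base 99 bases upstream, and Tpm1 held an MCAT motif 56 bases upstream. These distances are from the start site that each window was built on. In Acta2, Myl9 and Tpm1 that site was not the outer end of the gene. Their windows overlapped the gene spans given below, wholly for Tpm1. No CArG box with up to 1 other base in its core was in the windows of Cald1, Cnn3, Tpm1, Tpm2 or Enah. Stretches with another base in the CC or GG ends were not counted, and the Tpm1 window holds such stretches.

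The deposited intensities were not on a common scale. Their mean was 199.7 on replicate 2 of LPS-stimulated ΔTrspM cells and between 492 and 860.9 on the other arrays, and 47.7% of the probe sets of that array were under 16 units, against 16.1% to 28.8% elsewhere. All arrays were therefore quantile-normalized, 16 was added and log2 was taken; values below are log2 signals on that scale, where a difference of 1 is a doubling. All 10 genes passed a mean log2 signal of 6, as 11627 genes did, and were read from their brightest probe set. The signal of 1 probe set cannot be set against that of another, so levels are compared between groups and not between genes. The ratio of 3′ to 5′ actin signal, a check of RNA integrity, was 1.07 to 1.11 in unstimulated ΔTrspM cells against 1.05 to 1.06 in unstimulated control cells, and 1.09 to 1.24 in LPS-stimulated ΔTrspM cells against 0.881 to 1.17 in LPS-stimulated control cells. It was higher in ΔTrspM cells in 6 of 6 pairs of same-numbered arrays. A second check, from 3′ and 5′ signal of Gapdh, put the ΔTrspM array above its control partner in 2 of 6 pairs. The Gapdh values had both extremes in LPS-stimulated ΔTrspM cells, 0.679 on replicate 2 and 0.954 on replicate 1. What part either ratio had in the genotype differences was not tested.

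All 10 genes had a higher mean log2 signal in ΔTrspM BMDMs than in control BMDMs, both unstimulated and after LPS. In unstimulated cells 2 of these directions rested on single arrays. Without replicate 2 of unstimulated control cells 8 of the 10 were higher, Cnn2 being at -0.22 and Tpm1 at -0.07. Cnn2 was also lower, at -0.07, without replicate 3 of unstimulated ΔTrspM cells, and Tpm1 was at -0.01 with the mean of its probe sets. The widest difference was that of Tagln after LPS, and the narrowest were those of Tpm1 and Cnn2 in unstimulated cells. In bulk cultures, fewer cells of a type and less RNA for each cell cannot be told apart, so none of these values says which cells carried the RNA.

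Transgelin, an actin cross-linking protein of smooth muscle and stromal cells, is encoded by Tagln (chr9:45929628-45936058). After LPS, Tagln had log2 signals of 10.92, 8.57 and 9.97 in replicates 1, 2 and 3 of ΔTrspM cells, against 8.07, 6.79 and 5.51 in control cells. In unstimulated cells it had 9.89, 7.14 and 10.28 in ΔTrspM cells, against 9.00, 6.32 and 8.77 in control cells. The groups did not overlap after LPS and overlapped in unstimulated cells. The difference was 3.03 ± 1.00 on the log2 scale (SE, n = 3 each) after LPS, or 8.15-fold, the largest positive value among all genes tested. In unstimulated cells it was 1.08 ± 1.00, or 2.11-fold. Without replicate 3 of LPS-stimulated control cells, at 5.51, the difference after LPS was 2.39. Under the alternatives other than leaving out 1 array, it ran from 2.13 to 3.65. The rank among all genes was read from the main fit only, and the study had picked Tagln for this contrast. The order of the Tagln means was LPS-stimulated ΔTrspM at 9.82 ± 1.18 (SD, n = 3), unstimulated ΔTrspM at 9.10 ± 1.71, unstimulated control at 8.03 ± 1.48 and LPS-stimulated control at 6.79 ± 1.28, and no neighbours in that order differed by more than the within-group SD of 1.43.

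Both smooth muscle actins were higher in ΔTrspM cells in every same-numbered pair. Acta2 (chr19:34240336-34255585), the vascular form and the marker of myofibroblasts, had log2 signals of 12.31, 10.59 and 11.99 in LPS-stimulated ΔTrspM cells, against 10.63, 9.56 and 10.72 in LPS-stimulated control cells. Unstimulated, it had 12.01, 10.29 and 12.31 in ΔTrspM cells, against 11.36, 8.68 and 11.23 in control cells. Replicate 2 was the low one in each group and brought the groups into overlap, since its ΔTrspM arrays lay below the higher control arrays. The Acta2 difference was 1.32 ± 0.76 (SE) after LPS and 1.11 ± 0.76 unstimulated, or 2.50-fold and 2.17-fold, and the gap between the ΔTrspM and the control means was the one gap among its group means that exceeded the within-group SD of 1.08. Actg2 (chr6:83512909-83536251), the enteric form, had 8.60, 7.21 and 8.10 in LPS-stimulated ΔTrspM cells, against 7.44, 6.07 and 6.15 in LPS-stimulated control cells. In unstimulated cells Actg2 had 7.88, 7.21 and 8.02 in ΔTrspM cells, against 7.74, 6.33 and 7.56 in control cells. The enteric actin thus differed by 1.42 ± 0.49 (SE) after LPS and by 0.49 ± 0.49 unstimulated.

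Caldesmon, which blocks myosin from actin until calcium signals release it, had the smallest SE of the 10 genes once same-numbered arrays were compared. Cald1 (chr6:34598495-34775469) had log2 signals of 11.02, 8.16 and 11.00 in LPS-stimulated ΔTrspM cells, against 9.55, 6.94 and 9.13 in LPS-stimulated control cells. Unstimulated ΔTrspM cells had 10.97, 8.42 and 11.11, against 10.09, 6.96 and 9.71 in unstimulated control cells. Each ΔTrspM array was higher than the control array of the same number, by 1.47, 1.22 and 1.87 after LPS and by 0.88, 1.45 and 1.41 unstimulated, yet replicate 2 sat more than 2 log2 units under replicates 1 and 3 in every group. The SE was 1.10 with all arrays taken as independent and 0.19 when the replicate number entered the fit as a block, around differences of 1.52 after LPS and 1.25 unstimulated.

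The calponins Cnn2 and Cnn3, actin-binding proteins of non-muscle and of many cell types, differed less after LPS than the other genes. Cnn2 (chr10:79988600-79995400) had 10.66, 9.40 and 10.46 in LPS-stimulated ΔTrspM cells, against 9.57, 8.67 and 10.32 in LPS-stimulated control cells. In unstimulated cells it had 10.07, 9.47 and 11.00 in ΔTrspM cells, against 9.67, 8.70 and 11.13 in control cells. Cnn2 was the one gene that was lower in ΔTrspM cells in a pair, replicate 3 of unstimulated cells, with a difference of -0.13. Its difference was 0.65 ± 0.64 (SE) after LPS and 0.34 ± 0.64 unstimulated. Cnn3 (chr3:121426541-121458205) had 10.49, 8.88 and 10.30 in LPS-stimulated ΔTrspM cells, against 9.44, 8.79 and 9.15 in LPS-stimulated control cells. Unstimulated, Cnn3 had 9.99, 7.95 and 10.31 in ΔTrspM cells, against 8.82, 6.43 and 9.14 in control cells. For Cnn3 the difference was 0.76 ± 0.77 (SE) after LPS and 1.29 ± 0.77 unstimulated, narrower under LPS where that of Cnn2 was wider. The signals of Acta2 and Cald1 came from probe sets of the s type and those of Cnn3 from the x type, which can also detect related transcripts.

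Of the tropomyosins, which lie along actin filaments and set which proteins reach them, Tpm1 (chr9:67022590-67049672) had 10.70, 9.97 and 10.48 in LPS-stimulated ΔTrspM cells, against 10.01, 7.99 and 9.81 in LPS-stimulated control cells. Unstimulated cells had 10.96, 10.46 and 10.98 in ΔTrspM and 10.89, 9.80 and 10.84 in control. The unstimulated groups were close to each other on replicates 1 and 3, and the control array of replicate 2 after LPS stood lowest of all 12. Tpm1 was the only one of the 10 genes whose 4 group means did not place both ΔTrspM groups above both control groups: its difference was 1.11 ± 0.49 (SE) after LPS and 0.29 ± 0.49 unstimulated. Tpm2 (chr4:43513726-43523583) had 10.35, 8.08 and 9.91 in LPS-stimulated ΔTrspM cells, against 8.60, 7.53 and 8.97 in LPS-stimulated control cells. Unstimulated, Tpm2 had 9.33, 7.57 and 10.55 in ΔTrspM cells, against 8.68, 6.81 and 8.83 in control cells. The difference of Tpm2 was of like size in both states, 1.08 ± 0.83 (SE) after LPS and 1.05 ± 0.83 unstimulated.

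The motor and the filament ends were represented by Myl9 and Enah. Myl9 (chr2:156775408-156781657), a regulatory light chain of smooth muscle and non-muscle myosin II, had 9.57, 6.85 and 9.45 in LPS-stimulated ΔTrspM cells, against 7.90, 6.47 and 7.13 in LPS-stimulated control cells. In unstimulated cells Myl9 had 9.25, 7.09 and 9.55 in ΔTrspM cells, against 8.60, 5.73 and 8.01 in control cells. Replicates 1 and 3 of ΔTrspM cells stood above all control arrays of the same stimulus, and replicate 2 stood below 2 of the 3 control arrays. The Myl9 difference was 1.46 ± 0.92 (SE) after LPS and 1.18 ± 0.92 unstimulated. Enah (chr1:181896384-182027556), which shields growing filament ends from capping, had 9.42, 6.98 and 8.75 in LPS-stimulated ΔTrspM cells, against 7.79, 5.72 and 7.18 in LPS-stimulated control cells. In unstimulated cells Enah had 9.01, 6.84 and 9.16 in ΔTrspM cells, against 8.42, 6.01 and 8.25 in control cells. The difference in Enah was 1.49 ± 0.87 (SE) after LPS and 0.78 ± 0.87 unstimulated, with a block SE of 0.21.

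**Figure D1:**
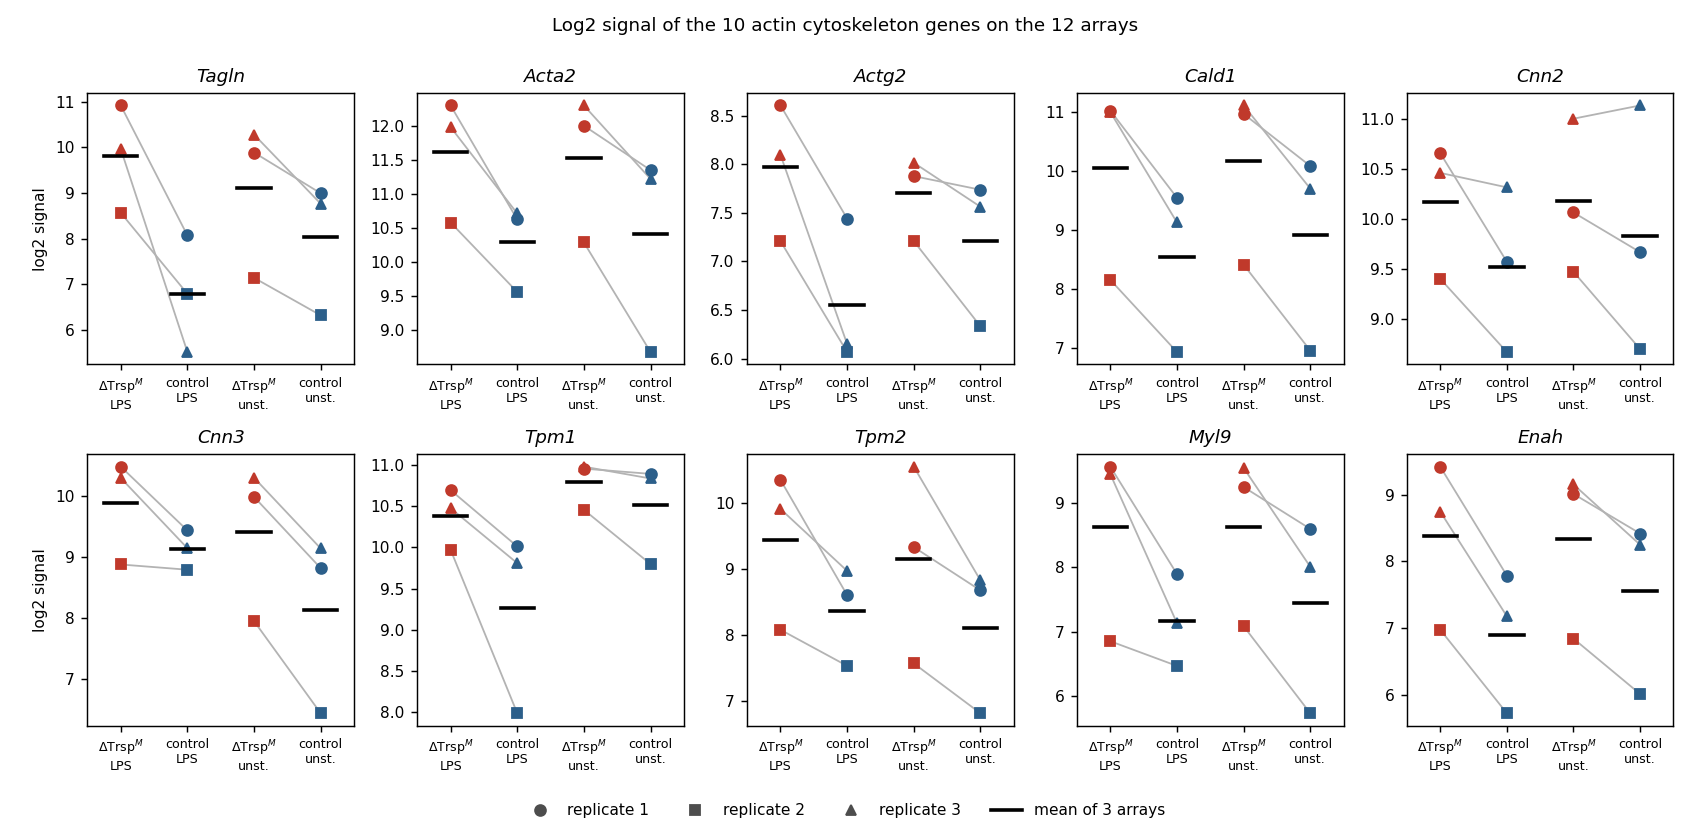
Log2 signal (vertical axis) of each of the 10 genes on the 12 arrays, with ΔTrspM cells in red and control cells in blue, LPS-stimulated on the left and unstimulated on the right of each panel; marker shapes are replicate numbers, grey lines join same-numbered arrays and black bars are means of 3. Most lines fall from ΔTrspM to control, and the squares of replicate 2 lie lowest in every group, except in LPS-stimulated control cells for Tagln, where replicate 3 was lowest at 5.51.

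In 9 of the 10 genes both ΔTrspM means lay above both control means, and only Acta2 and Tpm1 had neighbours in the order of group means that differed by more than the within-group SD. Counted over pairs of arrays with the same replicate number, 9 of the 10 genes were higher in ΔTrspM cells in 3 of 3 unstimulated pairs, where 17.8% of all genes were, and 10 of 10 in 3 of 3 LPS-stimulated pairs, where 18.5% of all genes were. In 6 of 6 pairs, 9 genes were higher, beside 4.85% of all genes. These counts used the contrast by which the genes were chosen, so they say only how even the differences were. Counted by groups that did not overlap, 1 gene, Tagln, had every ΔTrspM array above every control array after LPS (5.37% of all genes), and 0 had so in unstimulated cells (4.16% of all genes). The median difference over the 10 genes was 1.37 after LPS and 1.06 unstimulated on the log2 scale, beside 0.04 in each state over all genes. With no scaling of the intensities the LPS-stimulated median was 0.52 and 8 of the 10 genes stayed positive, Cnn2 at -0.25 and Cnn3 at -0.08 being the others. Without replicate 2 of unstimulated control cells the unstimulated median was 0.23, and without replicate 2 of unstimulated ΔTrspM cells it was 1.79. Across all genes, limma (adjusted p under 0.05, Benjamini-Hochberg) called 0% as higher in ΔTrspM cells, unstimulated or after LPS. At an unadjusted p under 0.05 it placed 204 genes higher unstimulated and 652 after LPS, and the methods' t-test placed 336 and 468. These counts cover the arrays only. The paper also checked genes from these arrays by real-time qPCR and reported significant differences, which were not analysed here.

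**Figure D2:**
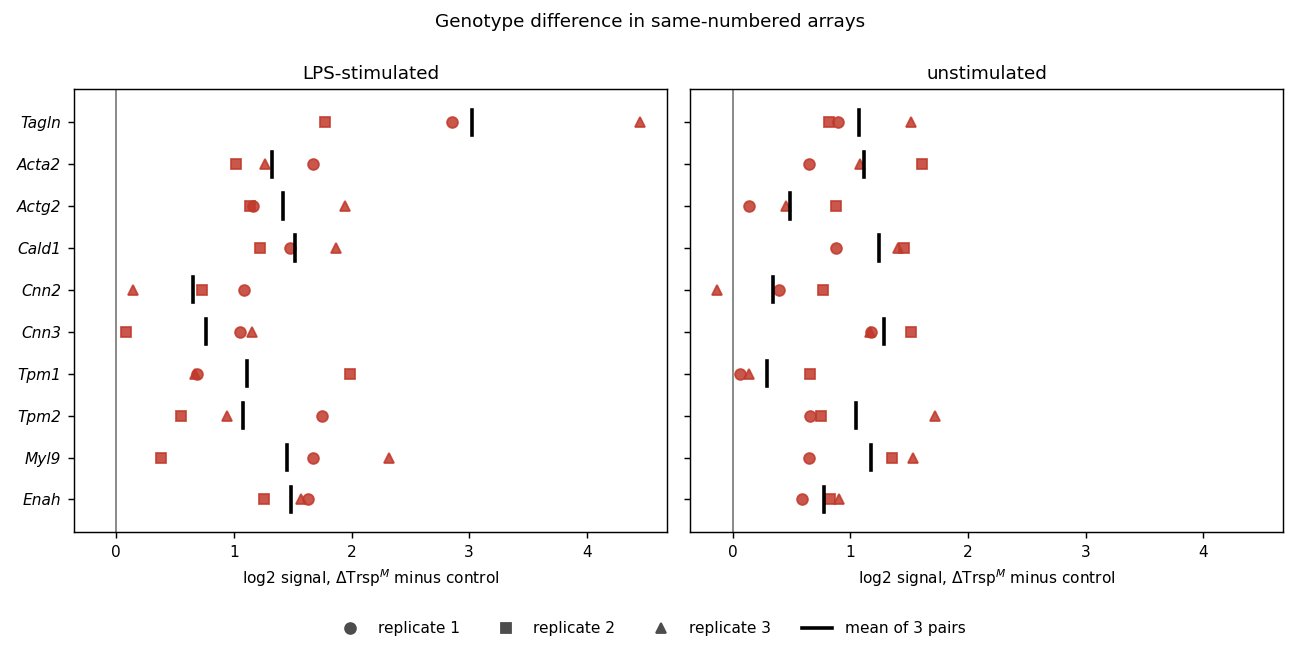
Difference in log2 signal, ΔTrspM minus control (horizontal axis), for each of the 10 genes in same-numbered arrays, after LPS on the left and unstimulated on the right; marker shapes are replicate numbers and black bars the mean of 3 pairs. All points lie right of 0 except replicate 3 of Cnn2 in unstimulated cells, at -0.13, and Tagln after LPS reaches 4.45 in replicate 3.

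Between replicates the 10 genes were among the most variable on the arrays. Replicate 2 was the lowest of 3 for 10 of 10 genes in LPS-stimulated ΔTrspM cells, 9 of 10 in LPS-stimulated control cells, and 10 of 10 in both unstimulated ΔTrspM and unstimulated control cells. Among all genes the shares lowest on replicate 2 were 46%, 44.9%, 41.5% and 38.9% in the same order of groups. The pooled within-group SD was 1.57 for Cald1, 1.43 for Tagln and 1.32 for Myl9, at the 99.8, 99.7 and 99.5 percentile of the 11627 genes whose mean log2 signal was 6 or more. It was lowest for Tpm1 and Actg2, both at 0.68, the 89.4 and 89.5 percentile. For comparison, the median of those genes was 0.34, and the cytoplasmic actin Actb had 0.19. What set replicate 2 apart was not stated in the labels, and as the lowest array it was shared by both genotypes and both stimuli.

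Most genes were represented by more than 1 probe set, 32 in all. Of the 21 whose mean log2 signal was 6 or more, 20 were higher in ΔTrspM cells unstimulated and 20 after LPS; among the 11 of these that were not used above, 10 were higher in each state. The exceptions were a Tpm1 probe set at -0.22 unstimulated and a Tpm2 probe set at -0.05 after LPS. The other bright probe sets of Cald1 gave 1.19 and 1.90 after LPS, on either side of the 1.52 above, and 1.00 and 0.80 unstimulated, both under the 1.25 above. The other bright Enah probe set gave 1.17 after LPS and 0.14 unstimulated. Of the 11 dim probe sets, 6 were higher in ΔTrspM cells after LPS and 8 unstimulated. The other probe sets of Acta2 were among these dim ones, at -0.31 and -0.28 unstimulated and 0.34 and -0.03 after LPS. Tagln, Actg2, Cnn2 and Myl9 had only 1 probe set each. The bright probe sets that were not used thus gave no second reading of Acta2 or of these genes.

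LPS changed none of the 10 genes, each read from its brightest probe set, enough to pass the test. In ΔTrspM cells 0 of 10 and in control cells 0 of 10 passed an adjusted p of 0.05 (limma, adjusted over all genes), where 15.8% and 15.6% of all genes passed. At an unadjusted p under 0.05, 0 genes passed in ΔTrspM cells and 1 in control cells, Tpm1, and the methods' t-test at the same unadjusted level placed 0 in either. Among the probe sets that were not used, a dim Enah probe set with a mean log2 signal of 4.85 rose by 0.97 in ΔTrspM cells (adjusted p = 0.0292 over all probe sets, limma), and another, at 5.25, gave 1.11 (adjusted p = 0.145, limma). The median LPS response of the 10 genes was 0.07 in ΔTrspM cells and -0.35 in control cells, beside -0.03 and -0.05 over all genes. In ΔTrspM cells 6 of the 10 estimates were positive, and in control cells 2. That count in ΔTrspM cells rested on the scaling, being 1 with arrays centred on their medians and 0 with no scaling. Leaving out 1 array moved it to between 1, without replicate 2 of unstimulated ΔTrspM cells, and 9, without replicate 3 of unstimulated or replicate 2 of LPS-stimulated ΔTrspM cells. The count in control cells moved to between 1, without replicate 2 of unstimulated or replicate 3 of LPS-stimulated control cells, and 6, without replicate 3 of unstimulated or replicate 2 of LPS-stimulated control cells.

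Tpm1 came closest. Its log2 signal after LPS, against that of unstimulated cells, was lower in 3 of 3 pairs of both genotypes, with differences of -0.26, -0.49 and -0.51 in ΔTrspM cells and of -0.88, -1.81 and -1.03 in control cells. The response was -0.42 in ΔTrspM cells (95% interval -1.50 to 0.67, adjusted p = 0.641, limma) and -1.24 in control cells (95% interval -2.32 to -0.16, adjusted p = 0.121, limma). With the replicate number as a block, under which 22.5% of all genes passed in ΔTrspM cells and 22.6% in control cells, Tpm1 fell in control cells (-1.24, adjusted p = 0.0133, limma), and in ΔTrspM cells it gave -0.42 with an adjusted p of 0.347 (limma). Its other bright probe sets gave -1.47 and -1.58 in control cells and -0.75 and -0.79 in ΔTrspM cells. A response that passed in one genotype and not in the other is not a difference between them. The Tpm1 response in ΔTrspM cells minus that in control cells was 0.82 ± 0.70 (SE), which is also its genotype difference after LPS minus that in unstimulated cells.

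Tagln had the widest spread of responses. After LPS, against unstimulated cells, it differed by 1.03, 1.43 and -0.32 in the 3 pairs of ΔTrspM cells, and by -0.93, 0.47 and -3.25 in those of control cells. The mean response was 0.71 (95% interval -1.48 to 2.91, adjusted p = 0.703, limma) in ΔTrspM cells and -1.24 (95% interval -3.43 to 0.96, adjusted p = 0.471, limma) in control cells, with pairs of both signs in each genotype. The actins gave 0.09 for Acta2 and 0.27 for Actg2 in ΔTrspM cells, and -0.12 for Acta2 and -0.66 for Actg2 in control cells. In control cells Actg2 was lower after LPS in 3 of 3 pairs, as were Cald1 at -0.38, Cnn2 at -0.31 and Enah at -0.66, and none of them passed the test. Cnn3 ran the other way, with 0.48 in ΔTrspM cells and 1.00 in control cells, and was higher in 3 of 3 control pairs, 1 of them by 0.003. The remaining genes, Tpm2 and Myl9, gave 0.30 and -0.01 in ΔTrspM cells, and 0.26 and -0.28 in control cells. The 95% intervals of all responses other than that of Tpm1 in control cells included 0, and most reached beyond a change of 1 in both directions. The SEs of these responses were 0.49 to 1.10, and 0.19 to 0.67 with the replicate block.

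**Figure D3:**
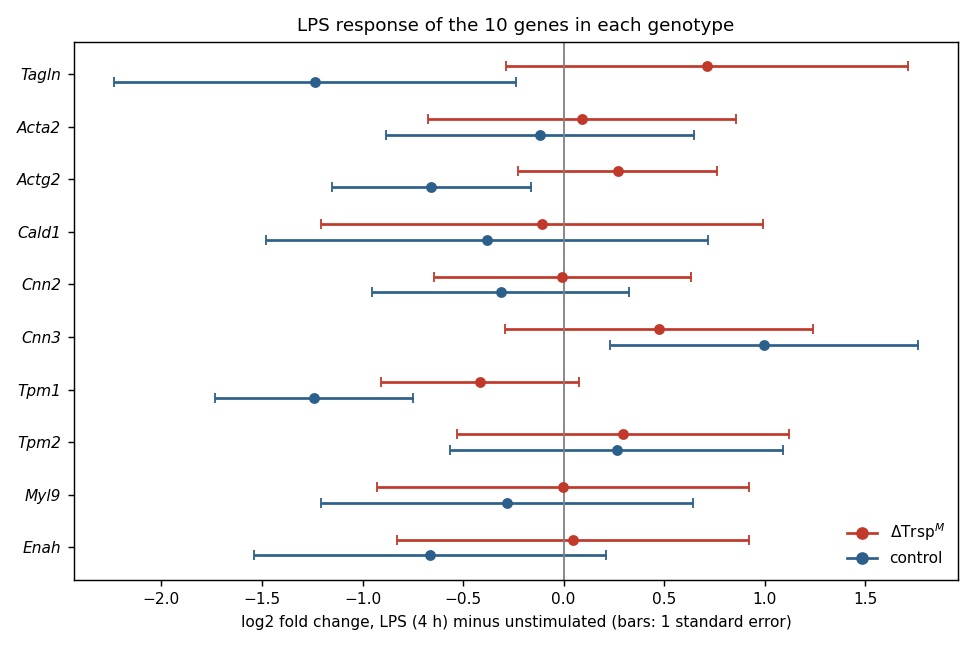
LPS response of each of the 10 genes as log2 fold change, LPS minus unstimulated (horizontal axis), in ΔTrspM cells (red) and control cells (blue); points are estimates from 3 arrays a group and bars are 1 SE. Tagln and Tpm1 reach -1.24 in control cells, and Cnn3 reaches 1.00 in the same cells.

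The response in ΔTrspM cells minus that in control cells is the same quantity as the genotype difference after LPS minus the unstimulated one, and so draws on the contrasts by which the genes were chosen. It is given for the 10 genes as a description, with no test. Among all genes 0% passed for this interaction term (adjusted p under 0.05, limma), and 555 genes had an unadjusted p under 0.05. The estimates were positive for 9 of the 10 genes, meaning a response higher in ΔTrspM cells, from 0.03 for Tpm2 to 1.95 ± 1.41 (SE) for Tagln, and negative for Cnn3 at -0.52. Their median was 0.29. These signs rested on the processing: 5 genes were positive, with a median of -0.01, when the arrays were centred on their medians in place of quantile normalization, and 3, with a median of -0.42, with no scaling. Leaving out 1 array gave 3 positive genes without replicate 2 of unstimulated ΔTrspM cells and 10 without replicate 2 of unstimulated control cells.

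Across the 12 arrays the 10 genes moved together. Pearson's r between pairs of them, over arrays that share the same 4 groups and the same libraries, had a median of 0.839 over 45 pairs and ran from 0.367 for Cnn3 with Tpm1 to 0.984 for Cald1 with Enah. With the mean of each group removed, the median was 0.854, so the shared variation lay between replicates as well as between groups. By comparison, the median r was 0.179 among paralogues of these genes and 0.187 among cortical and adhesion actin genes, on the same arrays. It was higher among genes of mesenchymal cells, at 0.567 for the stromal markers and 0.666 for 3 osteoblast markers, or 0.681 and 0.733 with group means removed. Tpm2 and Enah, each at 0.913, had the highest median r with the other members, and Tpm1 the lowest at 0.694. With Tagln, the closest members were Actg2 at 0.95 and Myl9 at 0.888. Outside the 10 genes, the highest r with Tagln among genes whose mean log2 signal was 6 or more belonged to Ccn4 (0.932), Ccn1 (0.927), Vgll3 (0.926), Fhl2 (0.924), Dab2ip (0.922), Gpx8 (0.921), Col5a1 (0.891), Bcat1 (0.89), Ccn2 (0.89) and Rcn3 (0.889). Ccn1, Ccn2 and Ccn4 encode secreted matricellular proteins, Col5a1 a fibrillar collagen chain and Fhl2 a LIM protein of focal adhesions. With group means removed, Arpc1a (0.971), Stau2 (0.947) and Pdlim1 (0.935) led, followed by Cbx2, Ccn4, Gm41724, Fbxo5, Phlpp2, Vasn and Ccn1, all at 0.912 or more, so Ccn4 and Ccn1 were named by both measures.

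**Figure D4:**
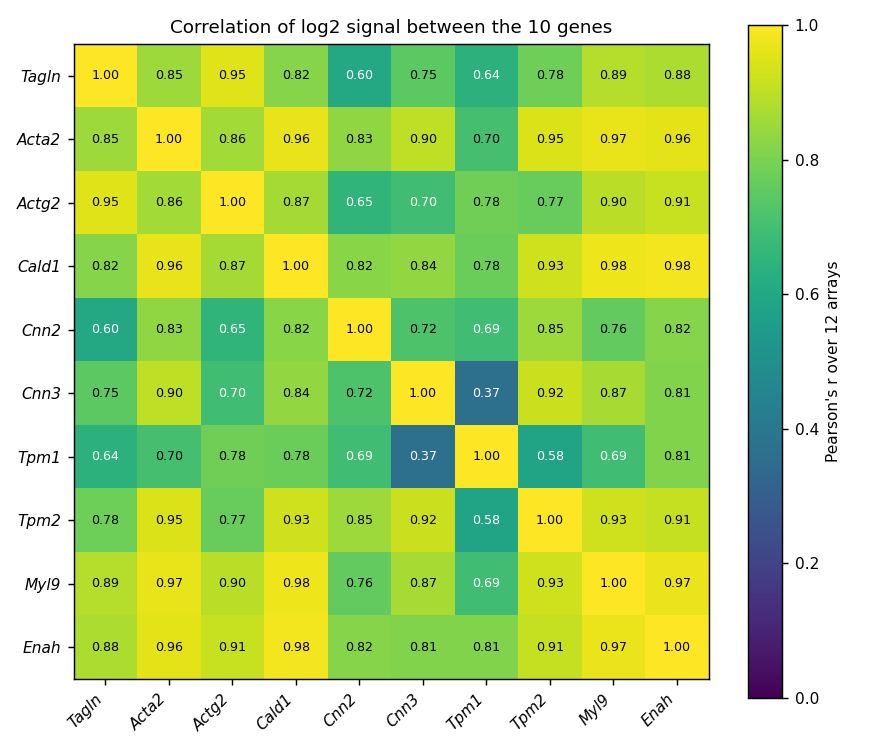
Pearson's r of log2 signal between each pair of the 10 genes over the 12 arrays, as colour and number. Values run from 0.37 for Cnn3 with Tpm1 to 0.98 for Cald1 with Enah.

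Paralogues of the 10 genes, several of which form the ordinary cytoskeleton of macrophages, had genotype differences near those of all genes. The 14 measured, among them the cytoplasmic actins, Tagln2, Cnn1, Tpm3, Tpm4 and Myl6, had a median difference of 0.16 after LPS and -0.01 unstimulated, and none exceeded 0.57 in size. Actb, the main actin of most cells, had a log2 signal of 13.75 in LPS-stimulated ΔTrspM cells against 13.49 in LPS-stimulated control cells, and 13.63 unstimulated in ΔTrspM cells against 13.55 in control cells. Acta1, the skeletal muscle actin, differed by 0.38 after LPS and 0.35 unstimulated. Under LPS, the filament-end proteins related to Enah moved in opposite directions. Vasp rose by 0.97 in ΔTrspM cells (adjusted p = 0.0439, limma) and gave 0.94 in control cells (adjusted p = 0.0513, limma), whereas Evl fell by 0.88 in each (adjusted p = 0.0244 in ΔTrspM and 0.0237 in control, limma). The other 12 paralogues did not pass in either genotype. With the replicate block, Vasp (adjusted p = 0.0107, limma) and Myl12b (-0.61, adjusted p = 0.0363, limma) also passed in control cells.

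Several genes of mature smooth muscle were at background. Of 11 contractile genes measured, Myh11, the smooth muscle myosin heavy chain, Lmod1 and Ppp1r14a were under a log2 signal of 6 on all arrays of every group. Their list had a median genotype difference of 0.17 after LPS and -0.02 unstimulated, and Des, the muscle intermediate filament, was at 0.48 after LPS and -1.17 unstimulated. None of the 11 passed the test for LPS in either genotype; with the replicate block, the integrin gene Itga8 passed in ΔTrspM cells (-1.64, adjusted p = 0.0138, limma) and in control cells (-1.39, adjusted p = 0.0286, limma), and Csrp1 in control cells (0.76, adjusted p = 0.0453, limma). Among the 12 measured genes that act on SRF and on actin assembly, the median difference was 0.08 after LPS and 0.06 unstimulated. Srf differed by 0.30 after LPS and 0.15 unstimulated, Mrtfa by 0.29 and 0.21, and Tead1, a factor that binds MCAT motifs, by 0.88 and 0.36. Myocd, the smooth muscle cofactor of SRF, was under 6 on all arrays. With LPS 1 gene of the list passed, Mrtfb, which encodes MRTF-B, and it fell by 1.22 in ΔTrspM cells (adjusted p = 0.00347, limma) and by 1.13 in control cells (adjusted p = 0.00501, limma). The replicate block added Limk1, a kinase of the filament-severing protein cofilin, in ΔTrspM cells (-1.25, adjusted p = 0.0196, limma) and control cells (-1.28, adjusted p = 0.0173, limma), and Ppp1r12a in control cells (0.58, adjusted p = 0.0375, limma).

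Cortical and adhesion actin genes had a median genotype difference of 0.07 after LPS and 0.03 unstimulated over the 26 measured. Fhl2 and Fermt2, both of focal adhesions, stood out of the list with 1.61 and 0.95 after LPS and 0.52 and 0.95 unstimulated. Under LPS, 4 rose and 2 fell in each genotype. The actin bundler Fscn1 rose by 2.42 in ΔTrspM cells and by 3.45 in control cells (adjusted p = 0.0161 and 0.00222, limma), together with Marcksl1, Marcks and Zyx, while Lima1 and Coro1a fell. The replicate block added Actn4 at -0.64 and Vcl at 0.63 in control cells (adjusted p = 0.0199 and 0.0429, limma).

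Markers of stromal cells, a known source of several of the 10 genes, differed between genotypes in the same direction. Of 15 stromal markers measured, 13 were higher in ΔTrspM cells in each state, with medians of 1.00 after LPS and 0.62 unstimulated, and several of them were themselves picked by the study on these arrays. Sparc differed by 1.63 after LPS and 1.25 unstimulated, Col5a2 by 1.54 and 1.03, and Col1a1 by 1.41 and 0.38. The 2 markers that were lower in unstimulated ΔTrspM cells were Thy1, at -0.47 with no overlap of the groups, and Dcn. After LPS the 2 lower ones were Pdgfrb, also with no overlap, and Pdgfra. The summed normalized signal of the 15 was 4566 to 15046 in LPS-stimulated ΔTrspM cells against 5369 to 6880 in LPS-stimulated control cells, and 1741 to 14124 in unstimulated ΔTrspM cells against 855 to 11515 in unstimulated control cells. The receptor gene Pdgfrb weighed on the sums after LPS, since it rose by 2.99 in ΔTrspM cells (adjusted p = 0.00525, limma) and by 4.45 in control cells (adjusted p = 0.000467, limma), and its genotype difference was -0.67 after LPS and 0.79 unstimulated. Without Pdgfrb the sums were 3431 to 13200 in LPS-stimulated ΔTrspM cells against 1427 to 4764 in LPS-stimulated control cells, and 1667 to 13697 in unstimulated ΔTrspM cells against 813 to 11342 in unstimulated control cells. No other stromal marker passed the test for LPS. Averaged over the list, they were higher in ΔTrspM cells in 6 of 6 pairs and lowest on replicate 2 in every group, and that average had an r of 0.847 with the average of the 10 genes over the 12 arrays. Thy1 was under a log2 signal of 6 on all arrays of 3 of the 4 groups, and Pdgfra on those of unstimulated control cells. Averages of the 10 macrophage markers went the other way, being lower in ΔTrspM cells in 6 of 6 pairs, with medians of -0.17 after LPS and -0.12 unstimulated, and Mrc1 had the widest difference at -0.51 and -0.80. Single markers did not all do so: 3 of the 10 were higher in ΔTrspM cells after LPS and 2 unstimulated, among them Lyz2, whose promoter drives the Cre, by 0.44 and 0.24 with no overlap of the groups in either state. Their summed signal was 78444 to 83805 in LPS-stimulated ΔTrspM cells against 79209 to 83264 in LPS-stimulated control cells, and 78103 to 81477 in unstimulated ΔTrspM cells against 79840 to 90044 in unstimulated control cells. The medians of pericyte, endothelial and megakaryocyte markers were -0.13, 0.03 and -0.01 after LPS and 0.05, -0.35 and -0.19 unstimulated, and those of 3 osteoblast markers were 0.32 and 0.14. Under LPS, the macrophage marker Cd14 and the endothelial marker Kdr rose in ΔTrspM cells, by 0.74 and 1.64 (adjusted p = 0.0377 and 0.0168, limma), and gave 0.63 and 1.17 in control cells (adjusted p = 0.0704 and 0.0713, limma). The platelet gene Gp9 rose by 1.46 in ΔTrspM cells and by 1.11 in control cells (adjusted p = 0.00901 and 0.0336, limma), Treml1 fell by 1.08 and 1.14 (adjusted p = 0.0427 and 0.0351, limma), and Itga2b rose by 0.92 in ΔTrspM cells and gave 0.38 in control cells (adjusted p = 0.0406 and 0.414, limma). The part of any of these cells in the differences of the 10 genes was not tested.

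**Figure D5:**
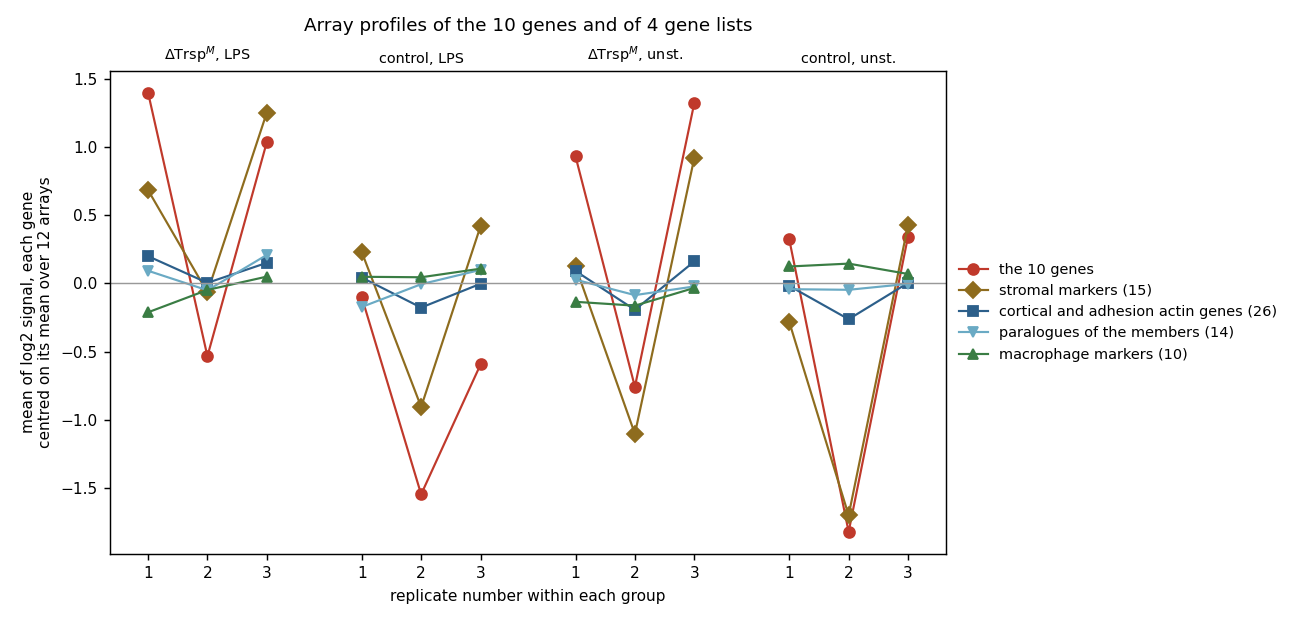
Mean log2 signal of the 10 genes and of 4 gene lists on each array, each gene centred on its own mean over the 12 arrays (vertical axis), by group and replicate number (horizontal axis). The 10 genes and the stromal markers dip on replicate 2 of every group, to -1.82 and -1.70 in unstimulated control cells, whereas the macrophage markers stay between -0.21 and 0.15. The cortical and adhesion actin genes are also lowest on replicate 2 of every group, over a narrower range of -0.26 to 0.20.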

How the data were processed

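RNA from 12 cultures of BMDMs was hybridized to Affymetrix GeneChip mouse arrays, and groups were taken from the labels. The authors deposited 45101 probe sets as linear signal intensities after normalization in Expression Console, and how probes were summarized is not given. After 64 control probe sets were left out, those with 1 gene symbol (34945) were kept, and the probe set with the highest mean log2 signal stood for each gene (18193 genes). Intensities were quantile-normalized, 16 was added and log2 was taken. Differences were fitted with limma 3.58.1 in R 4.3.3 over all 4 groups together (8 residual degrees of freedom), with Benjamini-Hochberg adjustment over all genes and a threshold of 0.05. With 3 arrays a group the smallest two-sided exact p is 0.1, so the p-values rest on the spread pooled by limma. The number of arrays limits the precision.

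The 10 genes and the lists were chosen with earlier results of these data known. From each other list up to 4 genes with the smallest p for LPS and up to 4 with the largest genotype difference could be named, of which those described are a part, and for likeness to Tagln the 10 highest correlations; some others are named to define a list or a count. Some genes of the lists are not reported here. With group means removed, the 12 same-numbered pairs of arrays in compared groups correlated at 0.126 to 0.442, and pairs of other numbers at 0.0727 or less. The 6 same-numbered pairs in groups not compared correlated at 0.0668 to 0.271, so the separation was not complete. The replicate numbers were treated as pairing the cultures, on the data and not the labels. A fit with a replicate block (6 residual degrees of freedom) was run beside the first. Scripts were tested on simulated data. The alternatives were median centring, no scaling, pseudocounts of 1 and 64, the mean of the probe sets, all probe sets, a filter on dim genes, only the arrays compared, trend and robust options, the methods' t-test, the block, and leaving out each array.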

Additional observations from a re-analysis of the deposited data

How the results depend on the processing

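The count of the 10 genes passing for LPS was 0 in ΔTrspM cells under every alternative run on the brightest probe sets or their mean. In control cells it was 0, and 1 with the mean of the probe sets, with the replicate block, with that block but no replicate 2 arrays, and without replicate 2 arrays or block, the last an alternative chosen after seeing the data. The gene was Tpm1 in each, at -1.11 (adjusted p = 0.0353, limma), -1.24 (adjusted p = 0.0133), -0.95 (adjusted p = 0.0263) and -0.95 (adjusted p = 0.0253). No other of the 10 changed its call under the replicate block. Leaving out 1 array at a time, these counts stayed at 0 to 0, the median genotype difference ran from 0.81 to 1.82 after LPS and from 0.23 to 1.79 unstimulated, and the median LPS response from -0.51 to 0.80 in ΔTrspM cells and from -1.12 to 0.09 in control cells, with replicate 2 at the ends of each range. The interaction median ran from -0.23 to 1.16. The genotype medians after LPS and unstimulated were 1.03 and 1.05 with arrays centred on their medians, 0.52 and 0.95 with no scaling, and 0.80 and 0.58 with the mean of the probe sets. Itga2b, a platelet marker called at 0.92 for LPS in ΔTrspM cells, was at -0.25 with no scaling (adjusted p = 0.804, limma); the cause was not tested. Signals near the pseudocount and 3 arrays a group limited what could be seen, above all on replicate 2 of LPS-stimulated ΔTrspM cells.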
